A study of Mus musculus with 3 samples.

Results

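Galectins are lectins that bind beta-galactoside sugars on glycoproteins and glycolipids, and many leave the cell without a signal peptide. Galectin-3, the product of Lgals3 and long used as the macrophage antigen MAC2, joins a single sugar-binding domain to a flexible tail through which it forms oligomers. Galectin-1 (Lgals1) is a dimer of a single domain, galectin-8 (Lgals8) and galectin-9 (Lgals9) carry a pair of different domains in a single chain, and Lgals3bp encodes a secreted glycoprotein that galectin-3 binds. In macrophages galectin-3 is known for roles in phagocytosis and at damaged lysosomes, and microglia, the resident macrophages of the brain, are known to raise it when activated.

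The 5 genes were taken by their symbols, and all 5 had a row among the 27998 genes of the count table. The study measured single cells from whole brain without cerebellum, sorted on the surface marker Cd11b, in female C57BL6J mice aged 5 months. The Ctrl sample came from 1 untreated animal. The D0 sample pooled 2 animals fed PLX5622 at 1200 mg/kg of diet for 14 days; this compound is an inhibitor of the Csf1 receptor on which microglia depend. The D2 sample came from 1 animal given control diet for 2 days after that treatment. There was thus 1 library per condition, and no test between conditions was possible.

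The table joins the libraries, and barcodes end in suffix 1, 2 or 3. No label ties a suffix to a condition, so values are given by suffix and no condition is named for any of them. The suffixes held 1263, 599 and 287 cells with medians of 3662, 6188 and 8172 UMIs (unique molecular identifiers, each standing for 1 captured RNA molecule), and 2137 cells remained after filters. No barcode was shared between suffixes. All 3 samples are labelled as microglia, yet the make-up differed: microglia-like cells were 1087 of 1261 cells in suffix 1 (86.2%), 65 of 592 in suffix 2 (11%) and 2 of 284 in suffix 3 (0.704%).

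Cells were clustered without the galectin genes and named from marker lists. All 10 microglia markers passed in each of the 3 microglia-like clusters, 8 of 9 monocyte markers in the monocyte-like cluster, 6 of 8 dendritic markers in the dendritic-like cluster and 12 of 12 neutrophil markers in the neutrophil-like cluster. For the NK-like cluster it was 8 of 10, and for the non-classical-monocyte-like and mature-dendritic-like clusters 8 of 8 each. The border-associated-macrophage-like cluster passed 9 of 10 of its own markers and also all 10 microglia markers. Its 10 leading genes held 6 of its own markers and none of the microglia markers. A cluster of 77 cells led by cell-cycle genes stayed unnamed, and is called the cell-cycle-led cluster. Levels are UMIs of a gene scaled to 1000000 UMIs of the class (CPM) with exact 95% Poisson intervals, here in 17 combinations of class and suffix with at least 20 cells. Intervals cover counting error only, and fewer molecules per cell and other differences between libraries cannot be told apart with 1 library each.

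In the GRCm38 annotation of GENCODE, Lgals3 spans chr14:47367751-47386160, Lgals1 chr15:78926725-78930465, Lgals9 chr11:78962974-78984946, Lgals3bp chr11:118392751-118402092 and Lgals8 chr13:12439415-12464944. The stretches upstream of the RefSeq starts of Lgals3, Lgals9 and Lgals3bp are shown because these genes differed between microglia-like cells of different suffixes (Lgals3, Lgals3bp) or with interferon-induced genes (Lgals9, Lgals3bp). They come from RefSeq's GRCm38.p6, run 5′ to 3′ on the gene's strand, and stop at the first exon annotated by GENCODE. Lgals3 is on the plus strand at chr14:47373610-47373812, Lgals9 on the minus strand at chr11:78984947-78985174 and Lgals3bp on the minus strand at chr11:118402093-118402209. Capitals mark a match, on either strand, to the core of the interferon response element, which was searched as GAAA, any 2 bases and GAAA.
Lgals3: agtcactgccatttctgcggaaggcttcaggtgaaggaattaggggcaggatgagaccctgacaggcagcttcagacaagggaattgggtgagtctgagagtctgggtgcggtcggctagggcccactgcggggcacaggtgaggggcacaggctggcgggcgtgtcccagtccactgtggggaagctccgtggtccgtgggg
Lgals9: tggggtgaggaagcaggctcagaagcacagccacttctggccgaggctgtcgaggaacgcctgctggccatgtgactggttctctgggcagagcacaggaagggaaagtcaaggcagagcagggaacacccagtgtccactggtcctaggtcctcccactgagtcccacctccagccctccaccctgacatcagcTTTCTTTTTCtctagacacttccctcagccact
Lgals3bp: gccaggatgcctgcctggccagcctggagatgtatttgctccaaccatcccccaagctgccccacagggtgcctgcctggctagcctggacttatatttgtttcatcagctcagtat

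Within the 250 bases before each start, Lgals9 held 1 match to this core, on the reverse strand and beginning 55 bases before the start, and 2.98% of 32851 mouse promoters of the same length held at least 1. Lgals3, Lgals3bp and Lgals8 held none in that window. The Lgals8 window was chr13:12461739-12461988 on the minus strand. This window and that of Lgals3 lie inside the GENCODE spans of their genes, downstream of the outermost annotated start, so they do not cover the sequence before that start. Of the 250 bases, 133 lay within an annotated exon for Lgals3bp, 47 for Lgals3 and 22 for Lgals9. Lgals3 held 1 match to the GC box GGGCGG, on the reverse strand 7 bases before the start and within an annotated exon, as did 32.7% of all promoters somewhere in the window. The AP-1 site TGANTCA, the TATA box TATAAA and the PU.1 core GAGGAAGT had no match in the 4 windows, against 6.75%, 12.4% and 2.44% of all promoters. GC content of the 250 bases was 66.0% for Lgals3, 58.4% for Lgals9, 55.6% for Lgals3bp and 49.2% for Lgals8, against a median of 52.4% over all promoters. Lgals1 had no entry in the table. A match is a string of letters, not evidence of binding.

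Lgals3 was highest in monocyte-like cells and lowest in microglia-like cells of suffix 1. In monocyte-like cells its level was 2542 CPM in suffix 2 (95% interval 2407 to 2681, 77 cells) and 2492 CPM in suffix 3 (2386 to 2601, 68 cells), and these intervals overlapped. Non-classical-monocyte-like cells held 1181 CPM in suffix 2 and 1831 CPM in suffix 3. Dendritic-like cells, the antigen-presenting cells, held 999, 1343 and 1371 CPM in suffixes 1, 2 and 3.

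Neutrophil-like cells held 1010 CPM of Lgals3 in suffix 2 and 1297 CPM in suffix 3. Mature-dendritic-like cells, which express Ccr7, held 733 CPM in suffix 2, from 31.5% of thinned cells and with 62 of 308 UMIs in 1 cell. Their median cell was at 145 CPM and the mean of per-cell CPM was 528. With cells named one by one their level was 1339 CPM, and that of dendritic-like cells of suffix 2 was 1448 CPM. NK-like cells, the lymphocytes of the sort, held 329 and 244 CPM in suffixes 2 and 3. At a clustering resolution of 1.0 they held 131 and 38.1 CPM, levels that rest on few UMIs. Border-associated-macrophage-like cells of suffix 1, the macrophages of meninges and vessels, held 114 CPM (93.2 to 138), with 39 of its 104 UMIs in 1 cell. The mean of per-cell CPM was 183 there, and with cells named one by one Lgals3 was at 0. Microglia-like cells of suffix 1 held 11.4 CPM (8.60 to 14.8), so the range over the 17 combinations was 223-fold. That lowest level was 38.8 CPM with cells named one by one, 7.36 CPM as a mean of per-cell CPM and 6.93 CPM with doublets kept, and the range moves with it. Among the cells named one by one, the 1085 that lay in microglia-like clusters held 11.4 CPM, and 84 from other clusters held 178 CPM. Of these 84, 70 were border-associated-macrophage-like in the main clustering. In the order of levels, 10 of 16 neighbouring pairs had overlapping intervals.

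The share of cells with an Lgals3 UMI was compared after thinning each cell to 2000 UMIs. It was 96.1% of monocyte-like cells in suffix 2 and 98.5% in suffix 3, 83.7% and 80.0% of dendritic-like cells, and 79.3% and 88.9% of neutrophil-like cells. NK-like cells stood at 31.3% in suffix 2 and 29.0% in suffix 3, at median depths of 3092 and 3002 UMIs. In suffix 1 it was 1.08% of 1019 microglia-like cells (11 cells, median 3393 UMIs in the class) and 13.3% of 90 border-associated-macrophage-like cells. Without thinning all monocyte-like cells of both suffixes had an Lgals3 UMI, and the share was 1.75% in microglia-like cells of suffix 1.

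**Figure D1:**
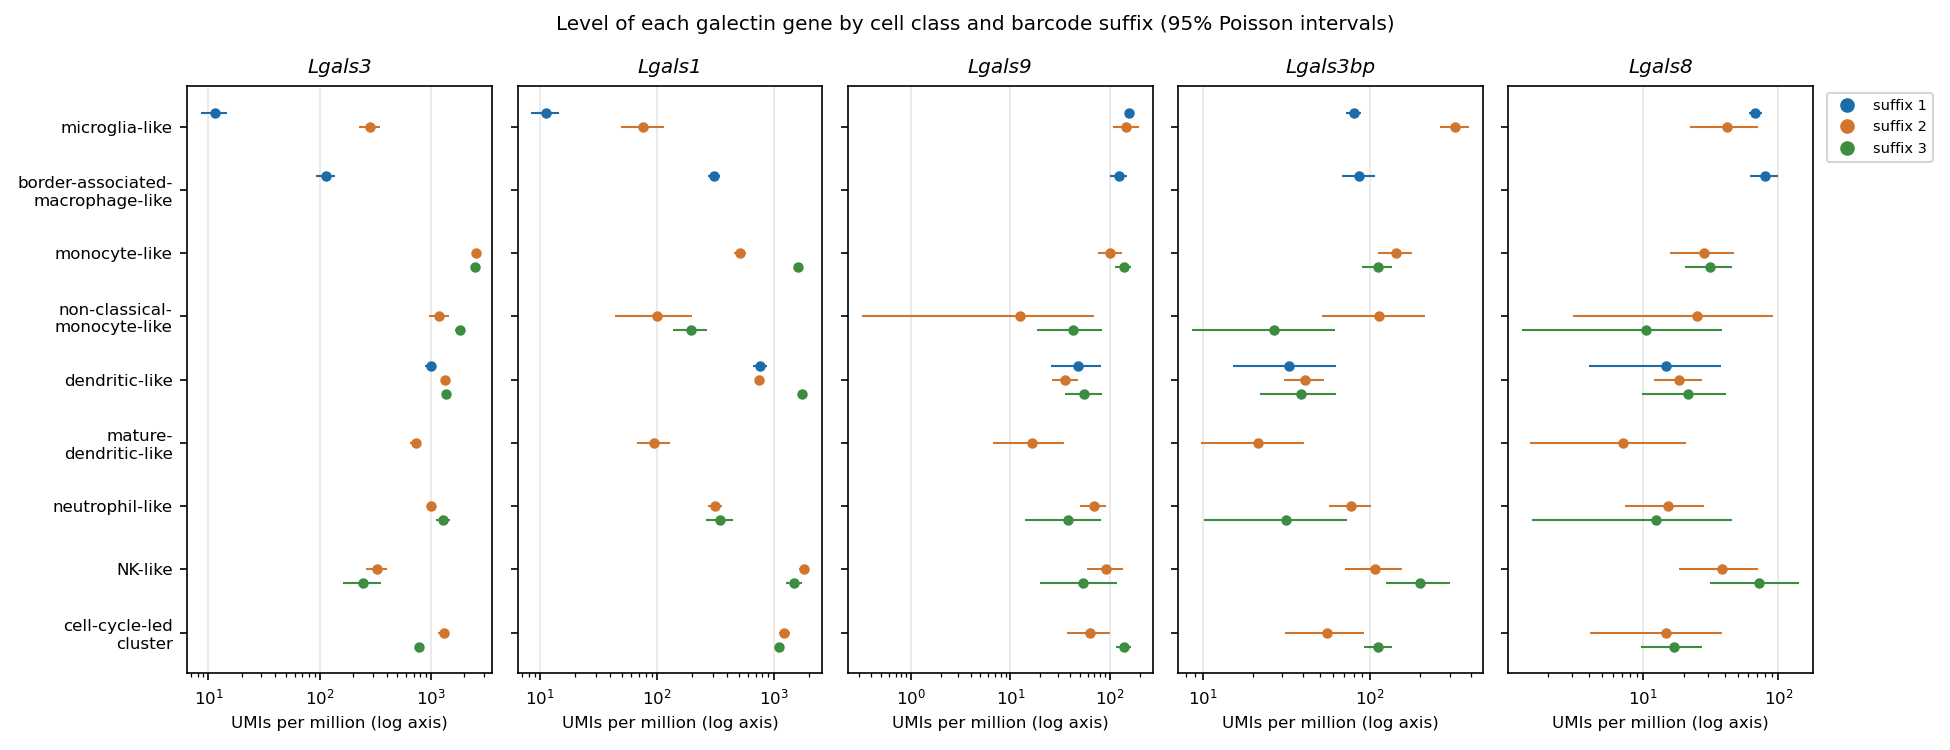
Level of each of the 5 genes in CPM (horizontal, log axis, a different range for each gene) by cell class (vertical), coloured by barcode suffix, with 95% Poisson intervals, for combinations of at least 20 cells. Lgals3 runs from 11.4 CPM in microglia-like cells of suffix 1 to 2542 CPM in monocyte-like cells of suffix 2, and Lgals9 and Lgals8 are at or near the top of their own ranges in microglia-like cells of suffix 1.

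Within suffix 2 the monocyte-like cells were set against the 65 microglia-like cells of the same library. Lgals3 was 8.94-fold higher in the monocyte-like cells (log2 ratio 3.16, interval 2.85 to 3.49). Lgals1 was 6.76-fold higher (log2 2.76, 2.15 to 3.42), and Lgals3bp was lower (log2 -1.18, -1.63 to -0.74). Lgals9 and Lgals8 had log2 ratios of -0.55 and -0.54, with intervals that reached past 0, and Lgals9 went to -1.04 with cells named one by one. Thus 3 of 5 genes were at least 2-fold apart, beside 34.5% of the 4108 genes with at least 20 UMIs, and the median log2 ratio over those genes was 0.10. Under the other settings the Lgals3 ratio ran from 2.19 to 4.42 and the Lgals1 ratio from 2.44 to 5.08, while the Lgals3bp ratio ran from -1.61 to -0.20. The last was found with called doublets kept, where the clusters were drawn again and 16 of the 65 microglia-like cells fell in an unnamed cluster.

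Lgals3 also differed among microglia-like cells. The 65 cells of suffix 2 held 284 CPM (228 to 350) and the 1087 cells of suffix 1 held 11.4 CPM, a 25.0-fold difference (log2 4.64, 4.14 to 5.15). The suffix 2 level was 120 CPM with doublets kept and 479 CPM with cells named one by one. In the latter the same 65 cells held 284 CPM, and 7 cells from other clusters held 1220 CPM. Lgals1 was at 76.7 against 11.2 CPM (log2 2.78), and Lgals3bp at 323 against 80.1 CPM (log2 2.01, 1.68 to 2.33). Lgals9 was level at 147 and 157 CPM, and Lgals8 stood at 41.5 and 67.5 CPM with an interval of the ratio that included 0. So 3 of 5 genes were at least 2-fold apart, beside 24.7% of 9209 genes, and the median log2 ratio of all genes was -0.39. The Lgals3 ratio kept between 3.63 and 5.07 over the other settings and the Lgals3bp ratio between 1.11 and 2.19. The Lgals1 ratio went down to 0.48 with doublets kept and to 0.90 with cells named one by one, both under 2-fold, and the Lgals8 ratio went from -0.70 to -1.13 with doublets kept.

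Most of the Lgals3 in microglia-like cells of suffix 2 lay in one cluster. The cluster led by Ccl3 and Il1a, genes of an inflammatory chemokine and a cytokine, held 444 CPM in 27 cells (354 to 550). The cluster led by the purinergic receptor genes P2ry13 and P2ry12, markers of homeostatic microglia, held 42.7 CPM in 36 cells (13.9 to 99.7). After thinning, 12 of 27 cells (44.4%, exact binomial interval 25.5 to 64.7%) against 3 of 30 cells (10.0%, 2.11 to 26.5%) had an Lgals3 UMI, and these intervals overlap slightly.

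The same cluster was the higher one in suffix 1, at much lower levels. There the Ccl3- and Il1a-led cluster held 35.4 CPM (25.9 to 47.2, 187 cells), with 21 of its 46 UMIs in a single cell. The P2ry13- and P2ry12-led cluster held 2.58 CPM and the cluster led by Hes1 and Adamts1 held 2.90 CPM. In suffix 2, 23 of 65 microglia-like cells had an Lgals3 UMI before thinning, with a median of 2.0 and a maximum of 18 UMIs. Suffix 3 had 2 microglia-like cells, and 1 of them held 31 UMIs of Lgals3.

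Lgals3bp showed the same order in suffix 2, with 433 CPM in the Ccl3- and Il1a-led cluster (345 to 538) and 162 CPM in the P2ry13- and P2ry12-led cluster (97.8 to 254). In the former, 21 of its 82 UMIs lay in 1 cell, and the median cell was at 230 CPM. In suffix 1 Lgals3bp lay between 67.7 and 87.4 CPM in all 3 clusters. Lgals9 lay between 127 and 179 CPM in all 5 sets of microglia-like cells. Lgals8 was 78.7 and 75.8 CPM in the P2ry13- and Hes1-led clusters of suffix 1, and 40.8 CPM (30.6 to 53.4) in the Ccl3- and Il1a-led cluster there.

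**Figure D2:**
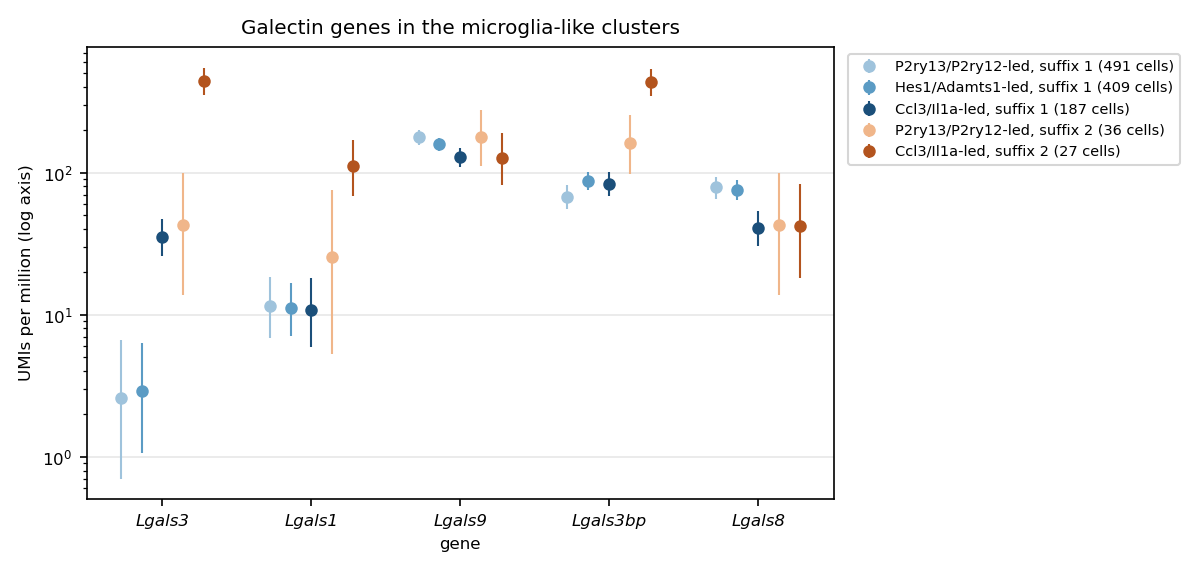
Level of each gene (horizontal) in CPM (vertical, log axis) in the microglia-like clusters, named by their leading genes and split by suffix, with 95% Poisson intervals. Lgals3 and Lgals3bp are highest in the 27 cells of the Ccl3- and Il1a-led cluster of suffix 2, at 444 and 433 CPM, and Lgals9 stays between 127 and 179 CPM.

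Markers of other cells were read beside these values. Among the thinned microglia-like cells of suffix 2, the 15 with an Lgals3 UMI held 15787 CPM of the 10 microglia markers and the 44 without held 21691 CPM, with none of the 10 at 0 in either set. The 9 monocyte markers summed to 61.0 CPM with Lgals3 and 68.7 CPM without, from 6 and 14 UMIs. With Lgals3 5 of the 9 were at 0 (Ccr2, Fn1, Chil3, Vcan and F10), and without it 2 were (Fn1 and F10). Between suffixes the marker lists differed. The microglia markers were lower in suffix 2. They summed to 41581 CPM in suffix 1 and 26691 CPM in suffix 2 in the P2ry13-led cluster, and to 28516 and 15893 CPM in the Ccl3-led cluster. In the P2ry13-led cluster the monocyte markers summed to 10.3 CPM in suffix 1 and 51.3 CPM in suffix 2, and the dendritic markers to 6.45 and 59.8 CPM. In the Ccl3-led cluster the monocyte markers were at 24.6 and 68.7 CPM, and the dendritic markers were level at 60.8 and 58.1 CPM. Border-associated macrophage markers were lower in suffix 2, at 181 and 137 CPM in the P2ry13-led and 210 and 148 CPM in the Ccl3-led cluster. The part of these markers in the difference between suffixes was not tested. Within suffix 2 the 8 dendritic markers summed to 61.0 CPM with Lgals3 and 58.8 CPM without, and the 12 neutrophil markers to 732 and 917 CPM. Border-associated macrophage markers stood at 203 and 108 CPM, and non-classical monocyte markers at 417 and 245 CPM, with 7 and 5 of those 8 at 0. The neutrophil markers were at 855 and 867 CPM in the P2ry13-led and Ccl3-led clusters of suffix 2, the clusters whose Lgals3 levels were 42.7 and 444 CPM, and at 192 and 273 CPM in the same clusters of suffix 1. The part of free RNA in the Lgals3 share was not tested: at 25.4% (15 of 59 cells), that share in microglia-like cells of suffix 2 lay below the 31.3% of NK-like cells. The order of these shares turned at a clustering resolution of 1.0, with 30.4% in microglia-like and 13.6% in NK-like cells, and with another random draw of the thinning, with 23.7% and 20.9%. With doublets kept they were 9.30% and 26.5%.

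Lgals1 was at 1816 CPM in NK-like cells of suffix 2 (1656 to 1986, 79 cells) and 1483 CPM in those of suffix 3 (1264 to 1728, 33 cells). The suffix 2 level was 841 CPM with cells named one by one and 3607 CPM at a clustering resolution of 1.0, where the suffix 3 level was 4384 CPM. Dendritic-like cells held 768, 754 and 1728 CPM in suffixes 1, 2 and 3. Monocyte-like cells held 518 CPM in suffix 2 and 1614 CPM in suffix 3. Among the dendritic-like cells suffixes 1 and 2 overlapped, and suffix 3 stood above both. In suffix 3 the NK-like level lay below those of dendritic-like and monocyte-like cells.

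Lower Lgals1 levels were found in neutrophil-like cells (313 and 346 CPM in suffixes 2 and 3) and border-associated-macrophage-like cells (308 CPM in suffix 1). With cells named one by one these were 675 CPM in neutrophil-like cells of suffix 3 and 826 CPM in border-associated-macrophage-like cells. Non-classical-monocyte-like cells held 101 and 196 CPM, and mature-dendritic-like cells 95.2 CPM. The number of Lgals3 UMIs per Lgals1 UMI was 11.75 in non-classical-monocyte-like cells of suffix 2, 7.70 in mature-dendritic-like cells, 4.90 in monocyte-like cells and 0.181 in NK-like cells of the same suffix. These ratios count 1 end of each molecule and were used only to compare classes. The part of free RNA in them was not tested.

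Between suffixes within a class, Lgals1 was the gene that differed in both monocyte-like and dendritic-like cells. In monocyte-like cells it was 3.12-fold higher in suffix 3 than in suffix 2 (log2 1.64, 1.45 to 1.83), and the other 4 genes were within 2-fold, beside 12.7% of 5348 genes at least 2-fold apart. The share of monocyte-like cells with an Lgals1 UMI after thinning was 53.2% in suffix 2 (41.5 to 64.7%) and 94.1% in suffix 3 (85.6 to 98.4%). In dendritic-like cells Lgals1 was 2.29-fold higher in suffix 3 than in suffix 2 (log2 1.20, 1.06 to 1.34), and again the other 4 were within 2-fold, beside 11.6% of 5581 genes. Lgals3 differed little in either, with log2 ratios of -0.03 (-0.13 to 0.07) and 0.03 (-0.11 to 0.17).

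Of monocyte-like cells 10.3% had at least 3 of 19 proliferation genes after thinning in suffix 3 and 1.30% in suffix 2. Of dendritic-like cells 8.89% had them in suffix 3 and none of 153 in suffix 2, which allows a share of up to 1.96%. In neutrophil-like cells it was none of 27 in suffix 3, which allows up to 11.1%, and 2.44% in suffix 2, and in the cell-cycle-led cluster 85.2% in suffix 3 and all 21 cells in suffix 2. Without cells that had at least 3 such genes the Lgals1 log2 ratios were 1.70 in monocyte-like and 1.23 in dendritic-like cells. Over all settings the ratio in monocyte-like cells ran from 1.04 with cells named one by one to 1.84, and in dendritic-like cells from 1.11 to 1.32.

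The other comparisons of suffixes follow. From suffix 1 to suffix 2, none of the 5 genes was 2-fold apart in dendritic-like cells, beside 13.3% of 5403 genes. The remaining ratios are all of suffix 3 over suffix 2. In NK-like cells none of the 4 genes with at least 20 UMIs was 2-fold apart, beside 9.28% of 2469 genes. Lgals1 had a log2 ratio of -0.29 there (-0.56 to -0.03). In non-classical-monocyte-like cells Lgals3 and Lgals1 were the only genes with at least 20 UMIs, and their log2 ratios of 0.63 and 0.97 lay within 2-fold, beside 12.7% of 1740 genes. At 1000 genes per cell both were past it, at 1.06 and 1.62. In neutrophil-like cells 1 of 4 genes, Lgals3bp, was past 2-fold (log2 -1.28, -2.97 to 0.03, from 5 and 50 UMIs), beside 27.4% of 3408 genes, and it was at -0.58 with doublets kept. With cells named one by one, Lgals1 reached 1.07 in neutrophil-like and Lgals3bp 1.33 in NK-like cells. At a clustering resolution of 1.0 Lgals3 was at -1.79 in NK-like cells. Its levels there, 131 CPM in suffix 2 and 38.1 CPM in suffix 3, rest on few UMIs, so no fall can be read from that ratio.

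**Figure D3:**
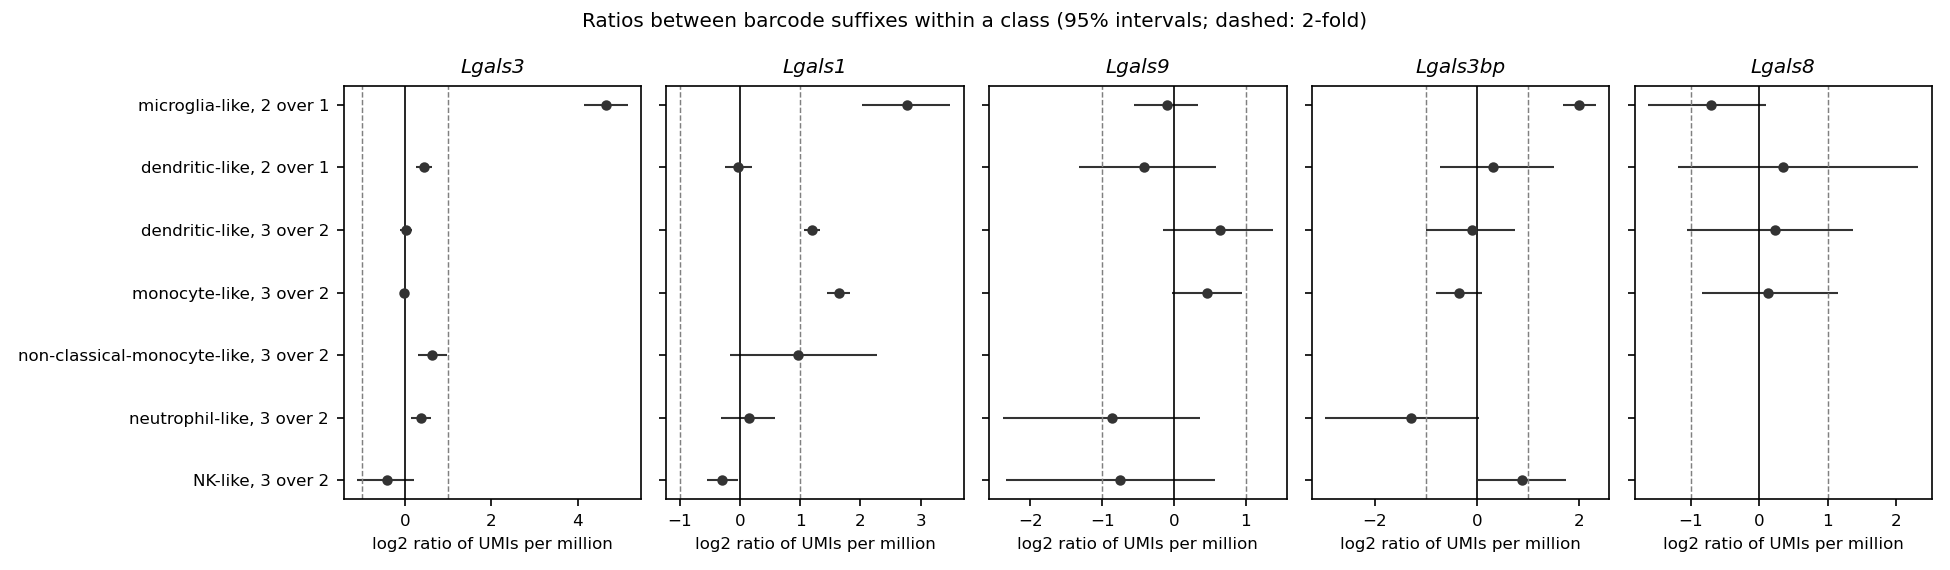
Log2 ratio of CPM between 2 suffixes of the same class (horizontal, with 95% intervals and dashed lines at 2-fold) for each gene with at least 20 UMIs. Lgals1 lies past 2-fold in microglia-like, dendritic-like (3 over 2) and monocyte-like cells, and Lgals3 in microglia-like cells alone among the comparisons drawn.

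Lgals9 encodes a ligand of the receptor Tim-3. Its highest levels were 157 CPM (146 to 168) and 147 CPM in microglia-like cells of suffixes 1 and 2, 139 CPM in the cell-cycle-led cluster of suffix 3 and 138 CPM in monocyte-like cells of suffix 3. Border-associated-macrophage-like cells held 123 CPM and monocyte-like cells of suffix 2 held 101 CPM. Dendritic-like cells held 35.7 to 55.4 CPM, mature-dendritic-like cells 16.7 CPM and non-classical-monocyte-like cells of suffix 2 a single UMI (12.6 CPM). All 16 neighbouring pairs in this order overlapped, as they did for Lgals3bp and Lgals8, and the highest-to-lowest folds were 12.5 for Lgals9, 15.1 for Lgals3bp and 11.1 for Lgals8. In NK-like cells of suffix 2, Lgals9 was at 55.8 CPM with cells named one by one.

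Lgals3bp was highest in microglia-like cells of suffix 2, at 323 CPM, with 21 of its 101 UMIs in 1 cell. With doublets kept it was at 172 CPM there. NK-like cells held 107 and 199 CPM in suffixes 2 and 3 (59.7 and 76.2 CPM, from few UMIs, at a clustering resolution of 1.0), and monocyte-like cells 142 and 111 CPM. The lowest levels were 21.4 CPM in mature-dendritic-like cells and 26.5 CPM in non-classical-monocyte-like cells of suffix 3. Lgals8, a sensor of damaged endosomes, was highest in border-associated-macrophage-like cells (79.0 CPM, 61.8 to 99.4). NK-like cells of suffix 3 (72.3 CPM from 8 UMIs) and microglia-like cells of suffix 1 (67.5 CPM, 60.4 to 75.1) came next. At a clustering resolution of 1.0 the NK-like value was 0, but the class then held too few UMIs for a 0 to show a lower level. Lgals8 was lowest in mature-dendritic-like cells, at 7.14 CPM from 3 UMIs.

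The 17 combinations share libraries and depth, so correlations across them are a description. On log2(CPM + 10), Pearson's r was -0.72 between Lgals3 and Lgals8 and 0.50 between Lgals3 and Lgals1. It was 0.68 between Lgals3bp and Lgals8, and 0.56 both between Lgals9 and Lgals3bp and between Lgals9 and Lgals8. Of 2883 genes, the 5 whose pattern was most like that of Lgals3 were Napsa (r 0.92), an aspartic protease, Lsp1 (0.90), an actin-binding protein of leukocytes, Arpc1b (0.89), a subunit of the Arp2/3 complex, the intermediate filament gene Vim (0.88) and Emb (0.87). Nearest to Lgals1 were S100a10 (0.91), Lsm4 (0.88) and Ifi203 (0.85), and nearest to Lgals9 were Cebpzos (0.85), Phgdh (0.85) and Glmp (0.83). Nearest to Lgals3bp were Cuta (0.79), Pld3 (0.78) and mt-Cytb (0.74), and among the nearest to Lgals8 were Tpst2 and Marc2 (0.87 each). Of the 5 nearest to Lgals3, 2 remained with Spearman's rho in place of Pearson's r.

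Co-detection of Lgals3 with the other genes was read in thinned cells. Over all classes, Lgals1 was found in 53.1% of 653 cells with Lgals3 (49.2 to 57.0%) and in 10.9% of 1378 cells without (9.29 to 12.7%). For Lgals9 the shares were 11.8% and 24.4%, for Lgals3bp 12.6% and 14.2%, and for Lgals8 5.51% and 12.2%. Suffix 1, mostly microglia-like, supplied most cells without Lgals3, and without suffix 1 Lgals1 was found in 53.9% of cells with Lgals3 and 37.1% of cells without. Of the 653 cells 231 (35.4%) had Lgals3 and none of the other 4 genes, and 1 cell had all 5.

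Within a class and suffix the differences went both ways. There were 8 combinations with at least 10 cells on each side, and the 32 pairs of intervals all overlapped. Lgals1 was more frequent with Lgals3 in 5 of 8, with a median difference of 3.59 percentage points and a range from -9.83 to 40.7. Lgals9 was less frequent with Lgals3 in 6 of 8, with a median of -11.8 points. In microglia-like cells of suffix 1 none of 11 cells with Lgals3 had an Lgals9 UMI (0 to 28.5%), against 26.3% of 1008 without, and in suffix 2 the shares were 20% of 15 and 31.8% of 44.

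In dendritic-like cells of suffix 2, Lgals1 was found in 58.6% of 128 cells with Lgals3 and 68% of 25 without. In NK-like cells of suffix 2 the shares were 61.9% of 21 and 71.7% of 46. In neutrophil-like cells they were 18.5% of 65 and 17.6% of 17. Monocyte-like cells could not be split in this way, since 3 of 77 in suffix 2 and 1 of 68 in suffix 3 lacked Lgals3.

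**Figure D4:**
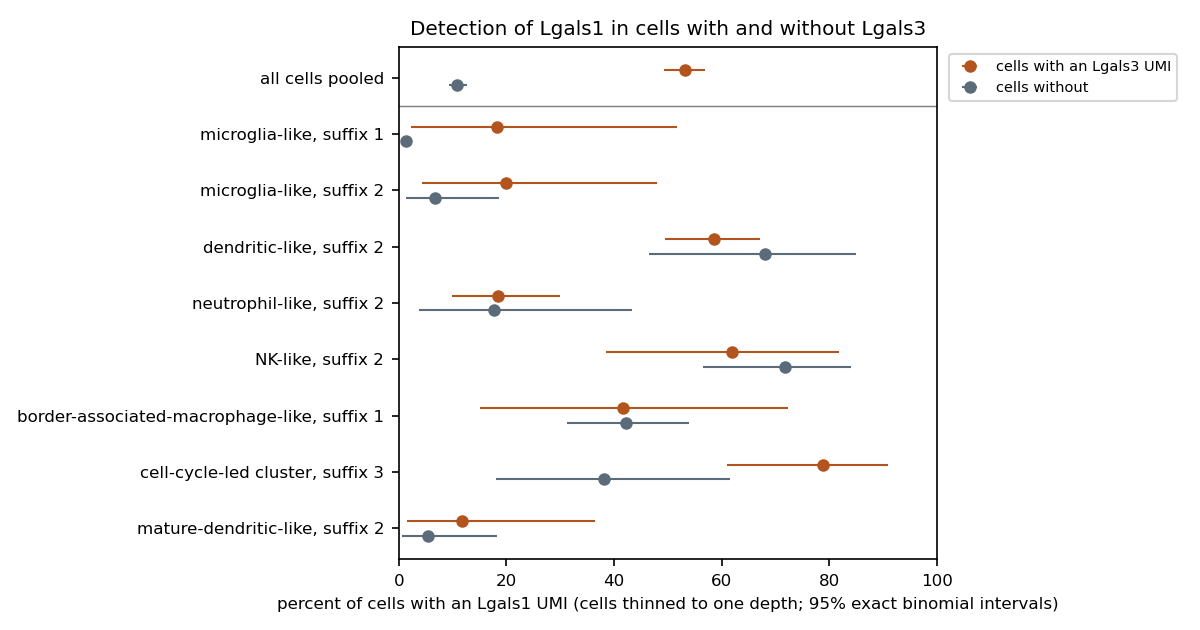
Percent of cells with an Lgals1 UMI (horizontal) among cells with and without an Lgals3 UMI, thinned to 2000 UMIs, for the pool and for the 8 combinations of class and suffix (vertical), with 95% exact binomial intervals. The pool gives 53.1% against 10.9%, and within the 8 combinations all intervals overlap.

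The widest gap was in the cell-cycle-led cluster of suffix 3, where Lgals1 was found in 78.8% of 33 cells with Lgals3 and 38.1% of 21 without, and the intervals overlapped by under 1 point (61.1 to 91.0% and 18.1 to 61.6%). This cluster held several kinds of cell: of its 54 cells in suffix 3, 18 were richest in microglia markers when named one by one, 10 in neutrophil, 9 in dendritic and 6 in monocyte markers. The 18 cells held 296 CPM of Lgals3 (244 to 355) and 622 CPM of Lgals1 at a median of 20180 UMIs. The other 36 held 1135 CPM of Lgals3 (1048 to 1227) and 1447 CPM of Lgals1. Lgals9 went the other way, with 202 CPM in the 18 cells (160 to 252) and 94.9 CPM in the 36, and so did Lgals3bp, with 176 and 68 CPM.

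Within the 36 cells Lgals1 was found in 23 of 29 cells with Lgals3 (79.3%) and 2 of 7 without (28.6%), and within the 18 in 3 of 4 and 6 of 14. This split was chosen after the values of the cluster were seen. In suffix 2 the 21 cells of the cluster held 1307 CPM of Lgals3 and 1233 CPM of Lgals1, with 312 CPM of microglia markers and 6 of those 10 markers at 0, against 4708 CPM and none at 0 in suffix 3.

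Lgals9 and Lgals3bp were higher in monocyte-like cells with many interferon-induced genes. Cells with at least 4 of 16 such genes after thinning made up 46 of 77 monocyte-like cells in suffix 2 and 40 of 68 in suffix 3, and 21 cells in each lay at 3 or 4 genes. Lgals3bp was at 181 CPM in these cells and 82.4 CPM in the other monocyte-like cells of suffix 2 (log2 1.14, 0.34 to 2.01), and at 151 and 67.7 CPM in suffix 3 (log2 1.16, 0.49 to 1.86). Lgals9 was at 128 and 58.1 CPM in suffix 2 (log2 1.14, 0.18 to 2.20) and at 174 and 97.8 CPM in suffix 3 (log2 0.83, 0.26 to 1.43). Lgals3bp was thus past 2-fold in both suffixes and Lgals9 in suffix 2, beside 8.25% of 2823 genes at least 2-fold higher in suffix 2 and 4.84% of 4151 genes in suffix 3.

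Lgals3 and Lgals1 showed no such gap in monocyte-like cells of suffix 3, with log2 ratios of -0.01 (-0.14 to 0.11) and -0.01 (-0.16 to 0.15), and in suffix 2 they were 0.30 (0.14 to 0.47) and 0.46 (0.09 to 0.85). Lgals3bp was also higher in the interferon-gene-rich cells of neutrophil-like cells in suffix 2 (log2 1.48, 0.55 to 2.37), dendritic-like cells in suffix 2 (1.26, 0.10 to 2.27) and border-associated-macrophage-like cells in suffix 1 (1.33, 0.38 to 2.17). Lgals9 was higher in those of neutrophil-like cells (1.14, 0.09 to 2.11). Its intervals reached past 0 in dendritic-like (0.88, -0.52 to 2.05) and border-associated-macrophage-like cells (0.34, -0.70 to 1.24). Lgals3 was lower in those of neutrophil-like cells (log2 -0.46, -0.82 to -0.11) and higher in those of dendritic-like cells (0.37, 0.15 to 0.59). Lgals1 was higher in those of dendritic-like (0.45, 0.16 to 0.73), neutrophil-like (0.54, 0.02 to 1.03) and border-associated-macrophage-like cells (0.68, 0.12 to 1.20). Intervals reached past 0 for Lgals3 in border-associated-macrophage-like cells and for both genes in non-classical-monocyte-like cells of suffix 3. Median depths of the monocyte-like cells with and without the call were 6502.5 and 5387 UMIs in suffix 2 and 9258 and 10919 UMIs in suffix 3.

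**Figure D5:**
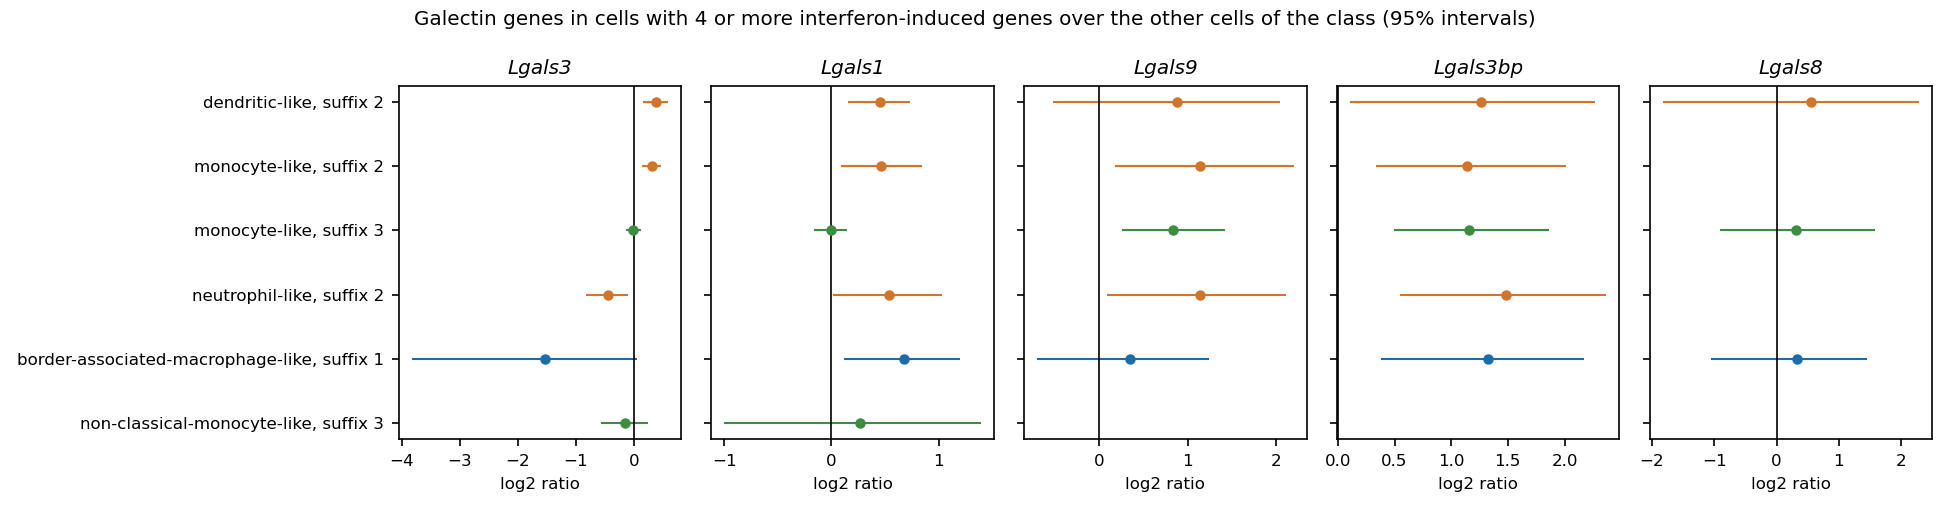
Log2 ratio of CPM between cells with at least 4 of 16 interferon-induced genes and the other cells of the same class and suffix (vertical), with 95% intervals, coloured by suffix (blue 1, orange 2, green 3), for genes with at least 20 UMIs. The Lgals3bp intervals lie above 0 in all 5 rows drawn, and the Lgals3 ratios lie on both sides of 0.

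Of 38 genes listed as galectin partners or enzymes that build their glycans, 22 had at least 20 UMIs in the monocyte-like and microglia-like cells of suffix 2. Of these 4 were at least 2-fold higher in monocyte-like cells, 10 at least 2-fold lower and 8 within 2-fold, beside 34.5% of all genes at least 2-fold apart, and their median log2 ratio was -0.71. The 3 highest were Cd40 (log2 4.50, from 38 UMIs against 1), the hyaluronan receptor Cd44 (3.93) and Cd47 (1.76), the signal that restrains phagocytosis. Mertk, a receptor for apoptotic cells, was at 0 UMIs in monocyte-like cells and 92.7 CPM in microglia-like cells, at least 16.3-fold lower against a floor of 3 UMIs. Lag3, a partner described for galectin-3, had a log2 ratio of -4.65, and Trem2, a microglial lipid receptor, one of -4.20.

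Havcr2, which encodes Tim-3, was at 15.2 CPM in monocyte-like and 79.9 CPM in microglia-like cells (log2 -2.40, -3.75 to -1.20). Mgat5, whose branched glycans galectin-3 favours, had 2 and 5 UMIs there and was not compared. From suffix 1 to suffix 2 of the microglia-like cells, 2 of 28 listed genes were at least 2-fold higher, 5 at least 2-fold lower and 21 within 2-fold, a share near the 24.7% of all genes at least 2-fold apart, and Trem2 and Havcr2 had log2 ratios of 0.29 (0.20 to 0.38) and -0.82 (-1.46 to -0.25).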

How the data were processed

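The deposited table holds whole-number UMI counts of 27998 genes in 2149 cells, pooled over the 3 samples. Cell Ranger 2.0.1 and mm10 are named in the submitters' processing notes. Depths per suffix stand above; 0 columns belong to no sample.

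Cells with at least 500 genes and at most 10% mitochondrial counts were kept (5 failed). Scrublet marked 7 doublets (0.326%), which were removed, and doublets may remain. With scanpy 1.11.5, 2000 variable genes without galectins, 30 components and 15 neighbours went into Leiden clustering at resolution 0.5, the best modularity of 20 starts; this choice and the final naming rule (at least 3 markers found in 30% of cells and 2-fold up, 1 of them among the 10 leading genes or 80% of the list) followed a look at the clusters. Ratios have exact conditional 95% intervals and shares Clopper-Pearson intervals (scipy 1.17.1). No test was run, as each condition has 1 library. The 5 genes in all combinations, the other family genes, the 3 highest and lowest partners plus Mgat5, Trem2 and Havcr2, and the genes most like each member (those reaching 100 CPM) are named, except 1 that is not reported here. The members and lists were chosen with earlier results of these data known. Scripts were tested on simulated data.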

Additional observations from a re-analysis of the deposited data

Results flagged for a closer look

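Signal was found in genes and cells that the comparisons did not use. Over all cells Lgals2 had 7 UMIs, Lgals4 had 12 and Lgalsl, a galectin-like gene, had 30, each above the 3 UMIs that a count of 0 allows. Lgals7 and Grifin had 3 UMIs each and Lgals12 had 0. Clusters under 20 cells also held UMIs of the members. The 12 cells of an unnamed cluster led by Ttr and Enpp2 had 19 UMIs of Lgals3 and 32 of Lgals1. The 12 endothelial-like cells had 10 of Lgals3 and 6 of Lgals1, and the 7 basophil-or-mast-like cells had 32 and 25.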

How the results depend on the processing

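Most values lay within their own interval under the alternatives: 611 of 680 levels, 314 of 341 log2 ratios and 674 of 810 shares of cells. The monocyte-like over microglia-like log2 ratio of Lgals3 (3.16) was 4.42 with doublets kept, 3.50 at 5% mitochondrial counts, 2.78 from the clustering start of middle modularity (added after seeing the data), 2.19 with cells named one by one and 3.74 from the mean of per-cell CPM. That of Lgals1 (2.76) was 5.08 with doublets kept. The share of Lgals3-positive cells with Lgals1 (53.1%) was 70.0% without thinning, 41.8% at 1000 UMIs, 62.8% without suffix 2 and 45.6% without suffix 3. For Lgals3-negative cells (10.9%) it was 13.1% without thinning, 14.4% where 2 Lgals3 UMIs were required, and 37.1%, 7.14% and 8.97% without suffixes 1, 2 and 3. Lgals9 in non-classical-monocyte-like cells, 8 UMIs in suffix 3 and 1 in suffix 2 (log2 1.76), reversed to -0.059 at 1000 genes per cell and to -0.019 at 5% mitochondrial counts. The causes were not tested. Depth limits Lgals9, Lgals3bp and Lgals8 most: they rest on 1473, 1114 and 570 UMIs in all.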
